A study of Rattus norvegicus with 12 samples.

Results

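The mitochondrial solute carriers of the Slc25 family were examined in epididymal adipocytes of rats after chronic unpredictable stress (CUS). The members were all genes whose name on the array begins with Slc25a and a number, with Slc25a1 left out, which gave 39 of the 26481 named genes and 51 of the 30367 probes. The rule rested on the names alone, though the members were chosen with earlier results of these data known. Of the 39 genes, 33 had a probe bright enough to be tested (17392 genes in all).

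The animals were male Fisher 344 rats, adult when bought. The 6 CUS rats received 2 stressors a day in random order for 35 days (swimming, rotation, isolation, food and water deprivation, changed lighting, wet bedding or crowding), and the 6 control rats were handled at weighing every 2 days. RNA of 1 rat per array was labelled with Cy3 and hybridised to a 1-colour Agilent gene expression array. The cell type field of the labels names adipocytes, whereas their extraction text names preadipocytes. The RNA came from a preparation of many cells, so fewer cells of a type and less RNA per cell cannot be told apart.

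Carriers of this family sit mostly in the inner mitochondrial membrane, which is otherwise closed to charged metabolites. Each moves particular solutes, such as ADP against ATP, phosphate, malate, aspartate, acylcarnitine or cofactors, so that the enzymes of the matrix and of the cytosol can share substrates. In adipocytes such transport feeds ATP supply, fatty acid oxidation and the export of carbon for fatty acid synthesis.

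Levels are log2 intensities relative to the 75th percentile (P75) of the array, so that 0 is the level of that percentile. Levels of different probes were not compared with each other, since probes bind with different strength. A gene was read by its brightest tested probe and passed at an adjusted p under 0.05 (limma, Benjamini-Hochberg over all tested probes).

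The 60-base probes below are shown because the results on the ADP/ATP and malate carriers, and a disagreement between probes of the same gene, rest on what they bind. They are given in the sense of the transcript, with positions of the array design on build rn4. The Slc25a5 probe lies at chrX:8073675-8073734 (minus strand) and the Slc25a11 probe at chr10:57524562-57524621 (minus strand). The second Slc25a24 probe lies at chr2:204749861-204749920 (plus strand), and the second Slc25a42 probe is placed across chr16:19715896-19716347 (plus strand), a span longer than the probe. Exon annotation of this build was not used here.
Slc25a5: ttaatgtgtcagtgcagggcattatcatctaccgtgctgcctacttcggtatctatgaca
Slc25a11: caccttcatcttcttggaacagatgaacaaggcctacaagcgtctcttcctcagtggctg
Slc25a24, second probe: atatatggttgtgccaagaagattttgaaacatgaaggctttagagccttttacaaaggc
Slc25a42, second probe: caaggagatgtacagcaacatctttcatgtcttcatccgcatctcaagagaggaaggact

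Arrays differed in ways that touch all of the values below. Each group filled its own slide, 1 for CUS and 1 for control, so slide and group cannot be told apart. The P75 intensity was 541.3 to 626.8 on CUS arrays and 229.8 to 399.7 on control arrays (exact permutation test, two-sided, p = 0.00216). The level of 10 spike-in RNAs relative to P75 was lower by 0.85 on the log2 scale on CUS arrays (exact permutation test, p = 0.00433), whereas unscaled it differed by -0.07 (exact permutation test, p = 0.615). Control array 3 stood apart from the other control arrays. It had the lowest P75, the highest summed adipocyte marker level (11.60, against 10.65 to 10.85 on the other control arrays) and the lowest endothelial (4.40, against 5.91 to 6.54) and smooth muscle (2.76, against 4.64 to 5.75) marker levels. Its fibroblast and preadipocyte (5.92), red blood cell (5.72), mast cell (-1.48), macrophage (3.49) and mesothelial (1.10) levels were also the lowest of all arrays.

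Across the family, 10 genes rose, 3 fell and 20 did not pass the test. Those named here carry ADP and ATP (Slc25a4, Slc25a5), phosphate (Slc25a3), dicarboxylates (Slc25a10, Slc25a11), acylcarnitine (Slc25a20), glutathione (Slc25a39), S-adenosylmethionine (Slc25a26) and branched-chain amino acids (Slc25a44). Slc25a14, Slc25a34 and Slc25a45 fell relative to P75, and with scaling on spike-in RNAs the sign turned for Slc25a14 and Slc25a45. The share that rose was 30.3%, beside 24.2% of all tested genes, and the share that fell was 9.09%, beside 25.9%. No member rose by a fold of 2 or more, beside 3.19% of all genes, and Slc25a34 alone fell by that much (3.03% of members, beside 8.77% of all genes).

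The median log2 difference was 0.23 over the 33 genes and -0.026 over all tested genes, and the difference was above 0 in 72.7% of members and 48.0% of all genes. Scaling on the spike-in RNAs moved the median of all genes to 0.82, and then 28 members were higher and 1 lower. This scaling shifts every gene by the same amount, so the distance of the members' median from that of all genes (0.25) is the same under both by construction.

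**Figure D1:**
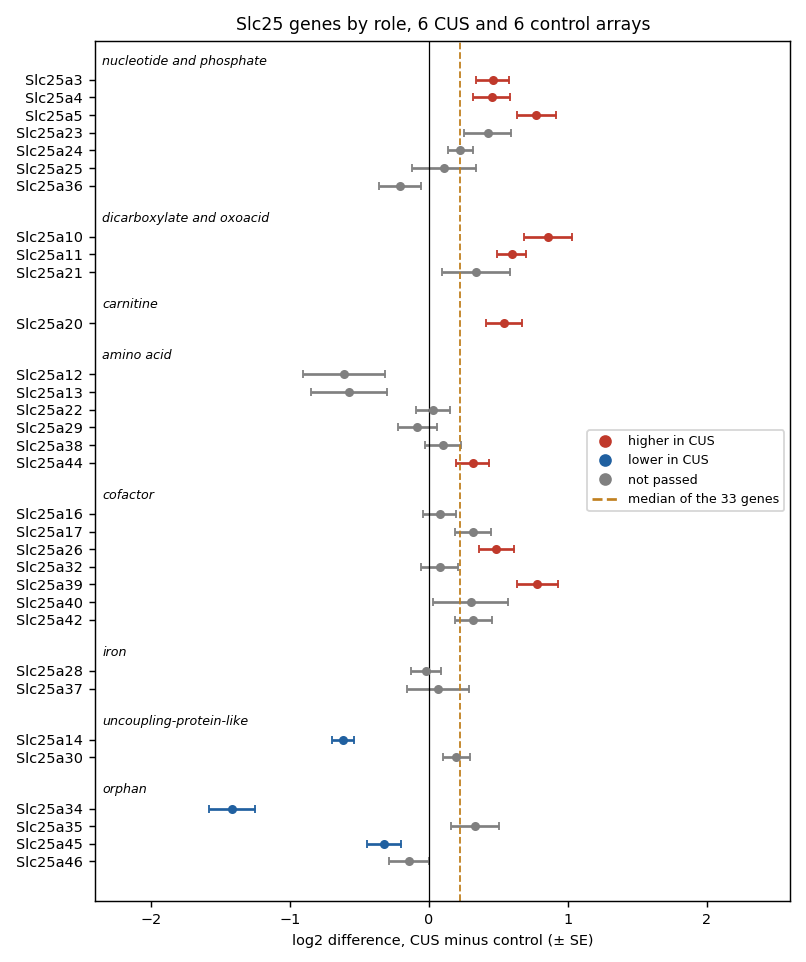
Log2 difference between CUS and control (x axis, CUS minus control) for 32 tested Slc25 genes, grouped by role, with bars for the standard error, 6 arrays per group, and a dashed line at the median of the 33 genes. The 9 genes shown that rose lie between 0.32 and 0.86, and Slc25a34 at -1.42 lies farthest from 0.

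The counts by role are small, and stand beside 24.2% higher and 25.9% lower among all tested genes. Among the carriers of nucleotides and phosphate, 3 of 7 tested genes rose and none fell. Slc25a5 (ANT2), an ADP/ATP carrier that brings ADP into the matrix and ATP out, ranged from 4.07 to 4.36 (median 4.26) on CUS arrays and from 3.08 to 4.08 (median 3.46) on control arrays. Its log2 difference was 0.77 ± 0.14 (SE, n = 6 per group, adjusted p = 0.000935), a fold of 1.71. The groups met at 1 array only, since control array 3 lay just above the lowest CUS array. Its second probe gave 0.63 ± 0.16 (adjusted p = 0.00603). Slc25a4 (ANT1), the ADP/ATP carrier best known from heart and muscle, ranged from 3.44 to 3.78 (median 3.68) on CUS arrays and from 2.87 to 3.76 (median 3.08) on control arrays. It rose by 0.45 ± 0.14 (adjusted p = 0.0152), and control array 3 reached the upper end of the CUS range. Slc25a31 (ANT4), the ADP/ATP carrier of the male germ line, had no array well above background.

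Slc25a3, which imports the phosphate used to make ATP, ranged from 4.68 to 5.00 (median 4.82) on CUS arrays and from 4.20 to 4.87 (median 4.29) on control arrays. It rose by 0.46 ± 0.12 (adjusted p = 0.00694), again with control array 3 as the single control array inside the CUS range. The ATP-Mg/phosphate carriers, which set the adenine nucleotide content of the matrix and respond to calcium, did not pass by their brightest probes. Slc25a23 ranged from 2.75 to 3.30 (median 3.18) on CUS arrays and from 2.21 to 3.34 (median 2.62) on control arrays, with a difference of 0.42 ± 0.17 (adjusted p = 0.0526). Slc25a24 ranged from 2.78 to 3.06 (median 2.93) and from 2.54 to 2.90 (median 2.64), with a difference of 0.23 ± 0.09 (adjusted p = 0.0562). Both missed the threshold narrowly, and both passed without control array 3 (0.55 and 0.27), a choice made after seeing the data. Slc25a25 ranged from 2.09 to 3.00 (median 2.57) and from 2.06 to 3.41 (median 2.23), with a difference of 0.11 ± 0.23 (adjusted p = 0.71). Its highest array was control array 1. Slc25a36, a pyrimidine nucleotide carrier, ranged from -0.79 to -0.15 (median -0.42) and from -0.60 to 0.15 (median -0.18), a difference of -0.21 ± 0.15 (adjusted p = 0.263). Its partner Slc25a33 is on the array under another name and was not among the members. Slc25a41, the ATP-Mg/phosphate carrier without a calcium-binding part, was likewise below that level on every array.

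The carriers of dicarboxylates and oxoacids held the largest rise of the family, with 2 of 3 genes passing. Slc25a10, which exchanges malate or succinate for phosphate and is known to be abundant in white fat, ranged from 1.75 to 2.67 (median 2.44) on CUS arrays and from 1.13 to 2.05 (median 1.48) on control arrays. The difference was 0.86 ± 0.17 (adjusted p = 0.00177), a fold of 1.81. Slc25a11, the malate/2-oxoglutarate carrier of the malate-aspartate shuttle, ranged from 1.72 to 2.12 (median 1.91) and from 1.18 to 1.72 (median 1.26), and rose by 0.59 ± 0.11 (adjusted p = 0.000751). For both genes 5 control arrays lay below all CUS arrays, and control array 3 lay inside the CUS range. Slc25a21, the oxodicarboxylate carrier of lysine and tryptophan breakdown, differed by 0.34 ± 0.24 (adjusted p = 0.262).

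The aspartate carriers of the same shuttle, Slc25a12 (aralar) and Slc25a13 (citrin), which export aspartate from the matrix in exchange for glutamate, did not pass by their brightest probes. Slc25a12 ranged from -0.17 to 0.71 (median 0.10) on CUS arrays and from -0.62 to 1.25 (median 1.03) on control arrays, a difference of -0.61 ± 0.29 (adjusted p = 0.099). Control array 3 was its lowest array of all, and the other 5 control arrays lay above every CUS array. Without that array, a choice made after seeing the data, the difference was -0.89 (adjusted p = 0.000565). With spike-in scaling of all arrays its sign turned, to 0.24 (adjusted p = 0.579). Slc25a13 was dim, well above background on 4 CUS and 3 control arrays, and ranged from -5.72 to -4.69 (median -5.11) and from -5.43 to -3.80 (median -4.64). Its difference was -0.58 ± 0.27 (adjusted p = 0.0949), and -0.75 without control array 3 (adjusted p = 0.018), by the same choice. It was -0.10 with quantile normalization, -0.04 with the normexp correction and 0.27 with spike-in scaling (adjusted p = 0.789, 0.613 and 0.496). A second, dimmer probe of each gene passed as lower, by -1.24 ± 0.21 for Slc25a12 (adjusted p = 0.000582) and by -1.03 ± 0.28 for Slc25a13 (adjusted p = 0.00941).

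Of the remaining amino acid carriers, Slc25a44 alone passed. Slc25a22, a glutamate carrier, ranged from 1.27 to 1.64 (median 1.51) on CUS arrays and from 1.16 to 1.88 (median 1.43) on control arrays, with a difference of 0.03 ± 0.12 and a 95% interval of -0.23 to 0.30. Its relative Slc25a18 was well above background on 1 control array and on no CUS array. Slc25a29, a carrier of basic amino acids, differed by -0.08 ± 0.14 and Slc25a38, the glycine carrier that serves heme synthesis in red cell precursors, by 0.10 ± 0.13 (adjusted p = 0.641 and 0.532). Slc25a44, which imports branched-chain amino acids and is known from brown fat, rose by 0.32 ± 0.12 (adjusted p = 0.0409). Its call was the least stable among the genes that rose, since it remained in 4 of the 12 fits that left out 1 array. Slc25a2 and Slc25a15, both ornithine carriers, were well above background on 1 array and on none.

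Slc25a20, the only carrier of carnitine and acylcarnitine in the family and the entry of long-chain fatty acids to oxidation, rose. It ranged from 0.79 to 1.14 (median 1.00) on CUS arrays and from -0.02 to 0.88 (median 0.43) on control arrays, a difference of 0.54 ± 0.13 (adjusted p = 0.00447). On 5 control arrays it lay below every CUS array.

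Of the 8 cofactor carriers, 3 rose and none fell. Slc25a39, a glutathione carrier, ranged from 1.74 to 2.35 (median 2.20) on CUS arrays and from 1.04 to 1.92 (median 1.29) on control arrays, and rose by 0.78 ± 0.15 (adjusted p = 0.0012). A second probe gave the same 0.78 ± 0.14 (adjusted p = 0.000867). Its close relative Slc25a40 was dim, from -4.09 to -3.36 (median -3.86) on CUS arrays and from -5.25 to -3.30 (median -4.00) on control arrays, and differed by 0.30 ± 0.27 (adjusted p = 0.37). The difference between these relatives was not tested. Slc25a26, which imports the methyl donor S-adenosylmethionine, ranged from -3.42 to -2.99 (median -3.18) on CUS arrays and from -4.03 to -3.37 (median -3.63) on control arrays, and rose by 0.48 ± 0.13 (adjusted p = 0.00743). Control array 3 was the highest control array for Slc25a39, but not for Slc25a26, in which control array 2 entered the CUS range. The coenzyme A carriers Slc25a16 and Slc25a42, the peroxisomal carrier Slc25a17 and the folate/FAD carrier Slc25a32 differed by 0.08 to 0.32 and did not pass.

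**Figure D2:**
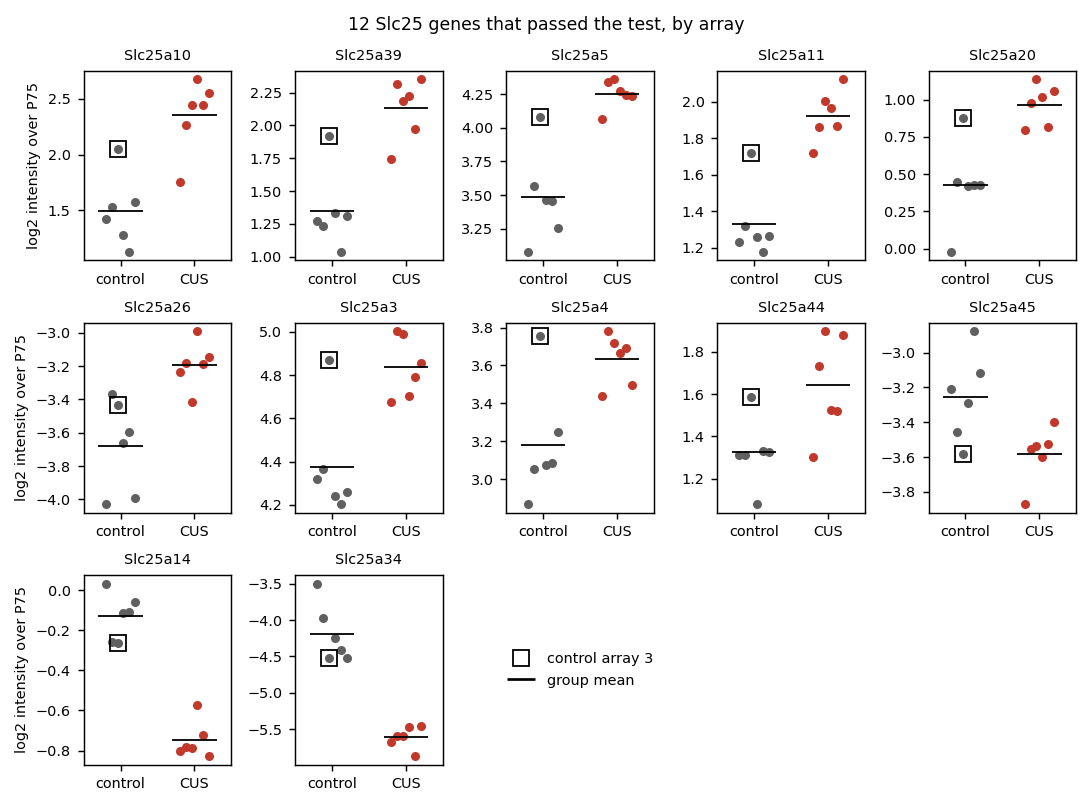
Level (y axis, log2 intensity over P75) of 12 Slc25 genes that passed, 1 point per array, with control on the left and CUS on the right of each panel, lines at the group means and a square on control array 3. That array was the highest control array for 8 of the 9 genes shown that rose, and the groups are fully apart for Slc25a14 and Slc25a34.

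Neither iron carrier passed by its brightest probe, on arrays that held strong red blood cell signals. Mitoferrin-2 (Slc25a28), the form found in most tissues, ranged from 2.51 to 3.04 (median 2.68) on CUS arrays and from 2.53 to 2.96 (median 2.78) on control arrays, with a difference of -0.02 ± 0.11 and a 95% interval of -0.26 to 0.22. Mitoferrin-1 (Slc25a37), the form of red cell precursors, ranged from -3.16 to -2.74 (median -3.09) and from -4.12 to -2.51 (median -2.96), with a difference of 0.06 ± 0.22 and an interval of -0.42 to 0.55. The adjusted p was 0.879 and 0.826. The dimmer Slc25a28 probe was called higher (0.24, adjusted p = 0.0427), and with spike-in scaling, which raised all genes, Slc25a28 and Slc25a37 passed as higher by 0.82 and 0.91 (adjusted p = 0.00161 and 0.0209). On the same arrays all 7 tested red blood cell markers were higher in CUS with no overlap, by a median of 4.52, led by Alas2 (6.15), Hbe2 (6.06) and Hbb-b1 (5.25). In the mitochondrial iron and heme list 6 of 9 tested genes rose and 1 fell, beside 24.2% higher and 25.9% lower among all tested genes. Ferrochelatase (Fech), which inserts iron into heme, rose by 1.17 ± 0.16 (adjusted p = 0.000155), and the iron-sulfur cluster genes Nfs1 and Iscu rose by 0.96 ± 0.19 and 0.85 ± 0.19.

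The 3 genes that fell belong to the uncoupling-protein-like and orphan carriers. Slc25a14, a relative of the uncoupling proteins first described in brain, ranged from -0.83 to -0.57 (median -0.78) on CUS arrays and from -0.26 to 0.03 (median -0.11) on control arrays. It fell by 0.62 ± 0.08 on the log2 scale (adjusted p = 8.98e-05), with every CUS array below every control array. With spike-in scaling, which shifts every gene alike, its difference was 0.23. Its relative Slc25a30, known from kidney, differed by 0.20 ± 0.10 (adjusted p = 0.105), and Slc25a27 (UCP4) had no array well above background.

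Slc25a34, whose substrate is not settled, ranged from -5.87 to -5.46 (median -5.60) on CUS arrays and from -4.53 to -3.50 (median -4.33) on control arrays, and fell by 1.42 ± 0.17 (adjusted p = 4.62e-05), a fold of 2.67. All CUS arrays lay below all control arrays. The gene was dim, well above background on 4 of 6 CUS arrays, and the size of the difference varied with the processing. It was -0.93 with quantile normalization (adjusted p = 0.00153), -0.57 with spike-in scaling (adjusted p = 0.0347) and -0.23 with the normexp background correction (adjusted p = 0.0116). Relative to P75, signal near background was itself lower in CUS. Slc25a15, Slc25a27, Slc25a31 and Slc25a41 had no array well above background. All were lower in CUS, by less than Slc25a34, and Slc25a27 and Slc25a41 were so without overlap. With no filter on dim probes, 11063 genes were lower and 4326 higher (median -0.34). The part of this offset in the falls of Slc25a34 and of dim probes of Slc25a12 and Slc25a13 was not tested. Slc25a45, another orphan, ranged from -3.87 to -3.40 (median -3.55) and from -3.58 to -2.88 (median -3.25). It fell by 0.33 ± 0.12 (adjusted p = 0.0412), but differed by -0.03 after quantile normalization (adjusted p = 0.866) and by 0.52 with spike-in scaling. Slc25a35 differed by 0.33 ± 0.17 (adjusted p = 0.127), and Slc25a46, an outer-membrane member linked to mitochondrial shape, by -0.14 ± 0.14 (adjusted p = 0.432). Among the tested members, the groups did not overlap for Slc25a14 and Slc25a34 alone. These made up 6.06% of members, beside 11.7% of all genes that were lower without overlap, and no member was higher without overlap, beside 10.3% of all genes.

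Control array 3 was often the overlapping array. Among the 10 genes that rose, it was the single control array inside the CUS range for 8. It was the highest control array for 63.6% of the tested members and for 42.4% of all tested genes. Without it, 15 members rose and 5 fell (45.5% and 15.2%, beside 29.1% and 30.5% of all genes). Slc25a17, Slc25a23, Slc25a24, Slc25a35 and Slc25a42 were then added to the genes that rose, and Slc25a12 and Slc25a13 to those that fell. The groups then did not overlap for 8 genes that were higher (24.2%, beside 19.6% of all genes) and for 3 that were lower (9.09%, beside 19.4%). The array was left out after these overlaps were seen, so the count of 8 follows from that choice, and the added calls depend on it.

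Levels of cell type markers also differed between the groups in several lists. The counts below stand beside 24.2% higher and 25.9% lower among all tested genes. Adipocyte markers were detected on all arrays, and 5 of 14 rose, led by Cidec (1.67), Aqp7 (0.79) and Lep (0.77). The 3 that fell, named after their values were seen, were Retn (-0.64), Plin1 (-0.60) and Cfd (-0.39), which encode resistin, perilipin and adipsin. The summed level of all 14 tested adipocyte markers was 10.72 to 11.01 on CUS arrays and 10.65 to 11.60 on control arrays. Endothelial markers fell in 6 of 10 (summed level 4.43 to 5.44 against 4.40 to 6.54), smooth muscle markers in 6 of 8 (2.77 to 4.06 against 2.76 to 5.75) and fibroblast and preadipocyte markers in 3 of 8 (5.99 to 7.15 against 5.92 to 7.72). Mast cell markers rose in 8 of 9 (1.17 to 2.54 against -1.48 to -0.90). Red blood cell markers rose in 7 of 7 (10.98 to 11.46 against 5.72 to 7.24) and mesothelial markers in 3 of 5 (3.09 to 3.80 against 1.10 to 3.53). Macrophage markers rose in 2 of 8 (4.89 to 6.28 against 3.49 to 5.43), a share near that of all genes. Of the brown adipocyte markers, Cidea alone was tested and was higher by 0.64. Neither of the 2 tested testis markers passed. The part of these cell types in the carriers' values was not tested.

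**Figure D3:**
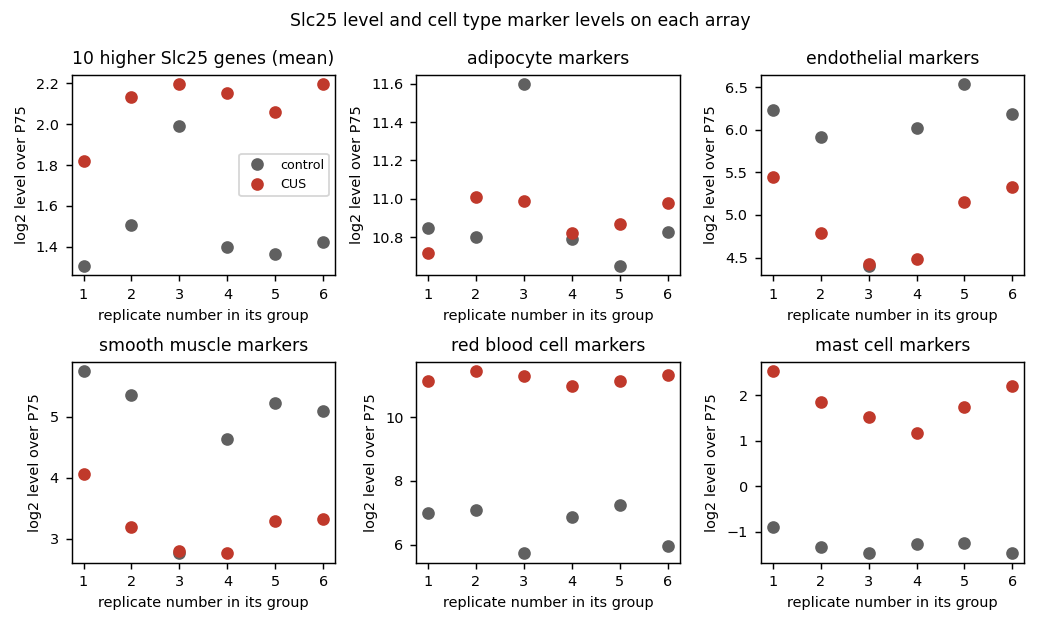
Mean level of the 10 Slc25 genes that rose and summed levels of 5 cell type marker lists (y axes, log2 over P75) on each array, by replicate number, which was not treated as a pairing. Control array 3 has a Slc25 level of 1.99, inside the CUS range of 1.82 to 2.20, together with the highest adipocyte level and the lowest smooth muscle level. It also has the lowest endothelial, red blood cell and mast cell levels.

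The enzymes and transporters that work with the carriers were read from lists of partners, whose counts also stand beside 24.2% higher and 25.9% lower among all tested genes. In the malate-aspartate and glycerophosphate shuttles 4 of 6 enzymes rose and 1 fell. Both malate dehydrogenases rose, Mdh2 of the matrix by 1.35 ± 0.15 (adjusted p = 2.9e-05) and Mdh1 of the cytosol by 1.11 ± 0.22 (adjusted p = 0.00151). Gpd2, the inner membrane enzyme of the glycerophosphate shuttle, fell by 1.16 ± 0.22 (adjusted p = 0.001). In the citrate-pyruvate cycle, which carries acetyl units out of the matrix, 4 of 7 rose and 1 fell, with pyruvate carboxylase (Pc) at 1.15, malic enzyme (Me1) at 0.98 and Idh1 at 0.93.

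Beside Slc25a20, 3 of 6 carnitine shuttle genes rose and 1 fell: Cpt1b and Cpt2, which attach and remove carnitine, rose by 0.80 and 0.42, and Cpt1c fell by 0.43. Beside Slc25a44, 3 of 10 matrix enzymes of amino acids rose and 2 fell, and the 2 largest rises were those of the branched-chain ketoacid dehydrogenase subunits Bckdhb (1.11) and Bckdha (0.64). Of 14 other inner membrane transporters 8 rose and 2 fell, among them the pyruvate carrier subunit Mpc1 (0.63), the serine carrier Sfxn1 (0.68) and Sfxn4 (-0.70). The calcium uniporter list had 3 of 6 higher, with the pore subunit Mcu at 0.42.

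The machinery that brings carriers to the inner membrane had 4 of 12 genes higher and none lower. Tomm40, the channel of the outer membrane, rose by 1.07 ± 0.16 (adjusted p = 0.000242) with no overlap between the groups, and the small chaperones Timm10 and Timm13 rose by 0.38 and 0.31. Outer membrane channels and users of ADP had 2 of 8 higher (Vdac3 at 0.31), a share near that of all genes. The folate, methyl and cofactor enzymes of the matrix had 1 of 8 higher, Nmnat3 (0.52). The 10 lists had medians of 0.12 to 0.50, beside -0.026 over all tested genes.

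**Figure D4:**
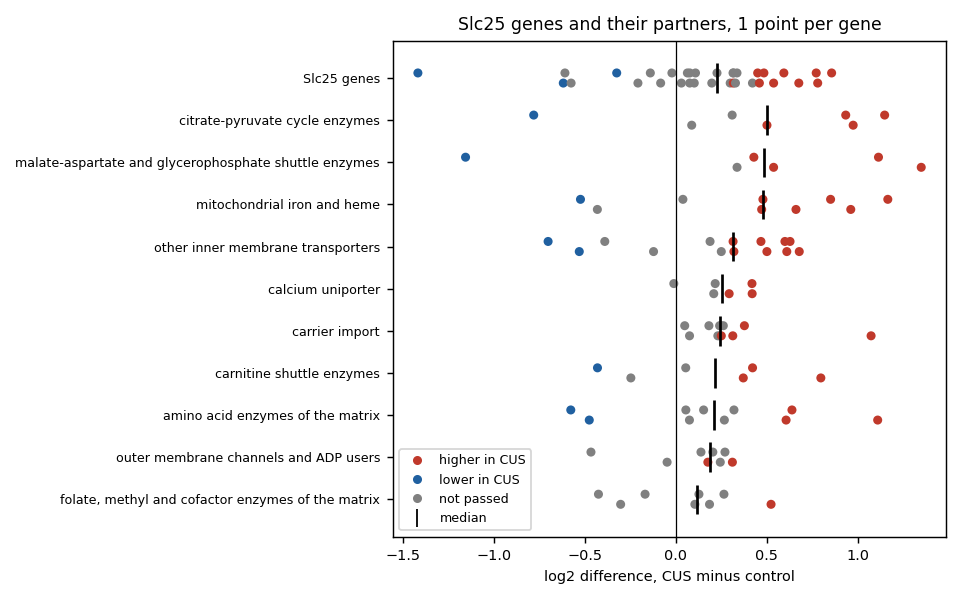
Log2 difference between CUS and control (x axis) for the tested Slc25 genes and for 10 lists of partner genes, 1 point per gene, coloured by call, with bars at the medians. All 11 medians lie above 0, from 0.12 for folate, methyl and cofactor enzymes to 0.50 for citrate-pyruvate cycle enzymes.

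More than 1 probe was tested for 9 genes. In 3 genes, Slc25a5 and Slc25a39 among them, every probe rose. In the other 6 genes the brightest probe did not pass and another was called, and no gene had probes called in opposite directions. For Slc25a24 and Slc25a42 that call is not read as a result, since the probe entered the test through the CUS arrays. The second Slc25a24 probe ranged from -4.39 to -3.97 (median -4.15) on CUS arrays and from -6.32 to -4.91 (median -5.63) on control arrays, a difference of 1.43 ± 0.23. It was well above background on 6 CUS arrays and 1 control array. The second Slc25a42 probe ranged from -4.93 to -4.16 (median -4.49) and from -6.83 to -5.14 (median -5.42). No control array measured it well above background, so its difference is given as a bound, at least 1.77-fold higher in CUS. Both probes reached the 6 arrays needed for the test through the CUS arrays alone, so their values are a description and no p is given. The coenzyme A linked carrier Slc25a16 gave 0.08 ± 0.12 by its brightest probe and 0.57 ± 0.22 and 0.85 ± 0.22 by the others (adjusted p = 0.605, 0.0444 and 0.00695). Slc25a28 gave 0.24 ± 0.09 by its dimmer probe (adjusted p = 0.0427).

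**Figure D5:**
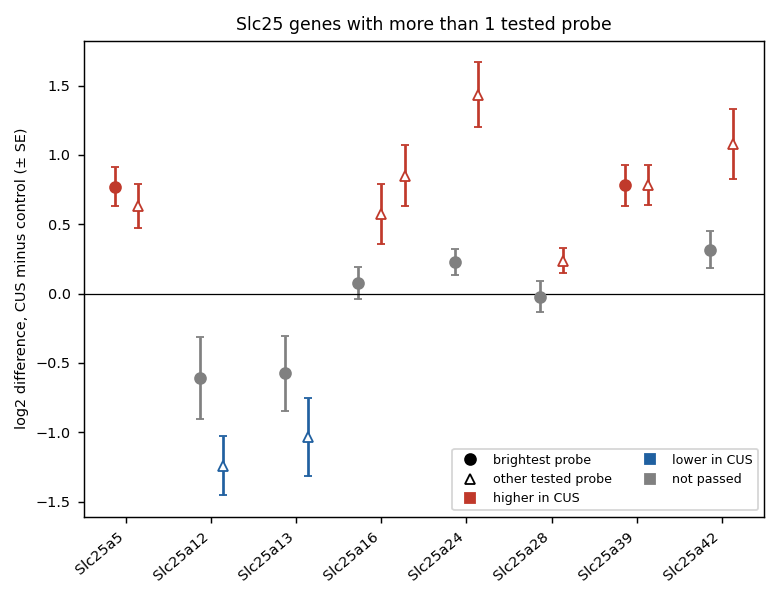
Log2 difference between CUS and control (y axis, with the standard error) for each tested probe of 8 Slc25 genes with more than 1, circles for the brightest probe and triangles for the others. Dimmer probes lie farther from 0 than the brightest probe for Slc25a12, Slc25a13, Slc25a16, Slc25a24 and Slc25a42, whereas the probes of Slc25a39 coincide at 0.78. The second probes of Slc25a24 and Slc25a42 entered through the CUS arrays alone.

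Promoter windows from RefSeq (build GRCr8) were found for 32 of the 39 genes, and the 250 bases before the start were read. The median GC content was 58.0% for the family and 52.0% for the 27457 promoters of the table. The motif CCGGAAG, on either strand, which is bound by ETS factors such as GABPA, was in 5 of 32 members (15.6%) and in 7.74% of all promoters. It was in 3 of the 8 genes that rose and had a window (Slc25a3, Slc25a4, Slc25a20), and also in Slc25a14, which fell, and Slc25a38, which did not pass. The windows of Slc25a3 and Slc25a14 overlapped the RefSeq records of these genes by 58 and 91 bases. The Slc25a14 motif, 16 bases before the start used here, lay in that overlap. The GGGCGG box, on either strand, was in 59.4% of members and 32.4% of all promoters. TGCGCA, the core of NRF1 sites, was in 12.5% and 6.57%, and neither the full NRF1 motif nor TCAAGGTCA was found in a member. The windows of Slc25a4 and Slc25a20, shown as examples among the genes that rose, lie at chr16:52805271-52805520 and chr8:118243323-118243572, both on the plus strand. Capitals mark CCGGAAG.
Slc25a4: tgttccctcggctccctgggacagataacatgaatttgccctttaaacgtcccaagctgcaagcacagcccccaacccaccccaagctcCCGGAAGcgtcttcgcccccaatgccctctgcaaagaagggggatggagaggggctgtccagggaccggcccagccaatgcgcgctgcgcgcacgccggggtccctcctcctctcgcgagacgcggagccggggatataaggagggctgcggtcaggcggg
Slc25a20: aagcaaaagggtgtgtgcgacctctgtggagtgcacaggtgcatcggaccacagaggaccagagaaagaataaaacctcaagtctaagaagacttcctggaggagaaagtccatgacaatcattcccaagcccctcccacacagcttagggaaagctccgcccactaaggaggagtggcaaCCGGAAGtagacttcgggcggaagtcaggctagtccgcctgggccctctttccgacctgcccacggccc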

How the data were processed

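The authors deposited the scanner intensity of each spot, which Agilent Feature Extraction (10.7.3.1, per the file headers) had background-subtracted and detrended, with surrogate values for spots not above background and no normalization between arrays. The methods name an exon array, but the files hold a gene expression array. The authors also deposited a table of intensities on a linear scale, with the same median on every array (5.55 on the log2 scale), used as an alternative.

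After removal of outlier spots, replicate spots were averaged and the P75 of each array was subtracted on the log2 scale. A probe was tested if 6 or more of the 12 arrays measured it well above background, with limma 3.58.1 in R 4.3.3, two-sided, with no covariate, and a gene was its brightest tested probe. P-values set the difference between the groups against the spread between rats of a group, and cannot separate it from an effect of the slide. Deposited flags of 0 or 1 gave the detection counts, and where a group had none the fold is a bound against the lowest signal well above background. The test was checked on simulated data. Replicate numbers (array positions) were not treated as pairs. Deviations of same-numbered arrays correlated at -0.186 to 0.431, which cannot exclude a shared effect of position. The members and lists were chosen with earlier results of these data known. The values of 1 member are not reported here, though counts and medians include it. The other members may be named, with values by array for the 12 largest called changes and for fixed pairs of relatives, and up to 3 genes of each list by size. The number of arrays limits the precision. Python 3.11.15 was used for tables and figures.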

Additional observations from a re-analysis of the deposited data

Results flagged for a closer look

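In 7 of the 66 groups of 6 arrays (33 genes, control and CUS) 1 array lay far from the other 5, by the gap to its neighbour relative to the range of the group. Chance gives about 1 in 20 groups, or 3.3 here. Control array 3 was the array concerned in 6 of the 7. Among these it was high for Slc25a3 (4.87, the others 4.20 to 4.37), Slc25a11 (1.72, the others 1.18 to 1.32) and Slc25a39 (1.92, the others 1.04 to 1.33). It was low for Slc25a12 (-0.62, the others 0.91 to 1.25) and Slc25a37 (-4.12, the others -3.10 to -2.51). The remaining one was CUS array 1, low for Slc25a17 (2.50, the others 2.79 to 2.91). Control array 3 also had the marker levels given above that set it apart, and their part in these values was not tested.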

How the results depend on the processing

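With spike-in scaling, 28 members were higher and 1 lower (18 and 0 by 2-fold), beside 11378 and 425 of all genes, and the medians were 1.07 and 0.82. Without scaling the counts were 28 and 1 (17 and 0 by 2-fold), beside 11764 and 679, with medians of 1.00 and 0.75. The sign turned for Slc25a12 (0.24 with spike-ins, 0.17 without scaling), Slc25a13 (0.27, 0.20), Slc25a14 (0.23, 0.16), Slc25a28 (0.82, 0.76), Slc25a29 (0.76, 0.69), Slc25a36 (0.64, 0.57), Slc25a45 (0.52, 0.45) and Slc25a46 (0.70, 0.64). Array weights gave 19 higher and 5 lower (5657 and 5939 of all genes), the mean of a gene's probes 13 and 5 (4341 and 4554), and no filter on dim probes 10 and 7 (4326 and 11063, median -0.34). No member was lower by 2-fold, and the median of all genes moved, with quantile normalization (0.024), the authors' table (0.025), normexp (0.012) and probes well above background on all 12 arrays (-0.001075, where Slc25a34 was not tested). With array weights that median was -0.013. The cause was not tested.

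Leaving out 1 array in turn gave 9 to 15 higher and 2 to 5 lower members, with medians of 0.20 to 0.27, and 3651 to 5066 higher and 3909 to 5303 lower genes, with medians of -0.032 to -0.016. Without control array 3, a choice made after seeing the data, groups did not overlap for 8 higher members (0 with it) and 3 lower ones (2 with it), beside 3417 and 3380 of all genes (1800 and 2034). The replicate block gave 14 higher and 4 lower members (4305 and 4806 of all genes). The methods' t-test gave 14 and 3 unadjusted (4721 and 4788) and 9 and 2 after Benjamini-Hochberg (3952 and 3825). The slide as a block was not run, since slide and group coincide. Slc25a3, Slc25a4, Slc25a5, Slc25a10, Slc25a11, Slc25a14, Slc25a20, Slc25a26, Slc25a34 and Slc25a39 passed in every fit without 1 array. Slc25a44 passed in 4 and Slc25a45 in 3 of these 12 fits. Signal over background limits Slc25a13, Slc25a34 and the second probe of Slc25a12.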
